A study of Mus musculus with 6 samples.

Results

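The VEGF family examined here comprises the ligands Vegfa, Vegfb, Vegfc, Vegfd and Pgf, the receptor tyrosine kinases Flt1, Kdr and Flt4, and the co-receptors Nrp1 and Nrp2. The 10 genes were taken by symbol from the deposited table of 27482 gene symbols. Of these, 9 had a row, 8 had at least 1 count in any library, and 6 (Vegfa, Vegfb, Vegfd, Pgf, Flt1 and Nrp2) passed the filter on low counts and were tested among 14663 genes. Vegfc was not analysed here.

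Gene expression was measured by RNA-seq in 6 libraries labelled as mouse heart. In 3 of them the mice had received an adeno-associated virus of serotype 9 for FNDC4 overexpression (AAV9-hFNDC4), and in the other 3 a control vector of the same serotype (AAV9-CTRL). Both groups had undergone ischemia/reperfusion (I/R), in which blood flow to the heart is stopped and then restored, with collection 24 h later, and the series title specifies male mice. The mouse strain, their age and the vectors' promoter are not given in the sources used. The labels do not tie each library to its own animal, so every p-value reflects library-to-library spread that may be technical.

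VEGF ligands are secreted dimers that drive the growth, survival and permeability of blood and lymph vessels. VEGF-A binds FLT1 and KDR, VEGF-B and PlGF bind FLT1, and VEGF-C and VEGF-D bind FLT4 and, after processing, KDR. KDR carries most of the angiogenic signal in endothelium, FLT1 binds VEGF-A tightly with weak kinase activity, and its soluble form acts as a trap. Neuropilins have no kinase of their own. They strengthen VEGF binding to the receptors and are also receptors for class 3 semaphorins. In the heart, cardiomyocytes and stromal cells supply VEGF-A to the capillary endothelium, and hypoxia raises Vegfa transcription through HIF1A.

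Total counts ranged from 34419687 to 35149915 in the AAV9-hFNDC4 libraries and from 32975817 to 36074046 in the AAV9-CTRL libraries. Levels are CPM (reads of a gene scaled to a fixed library size) with library sizes normalized by TMM, values after ± are SD over 3 libraries, and differences are AAV9-hFNDC4 relative to AAV9-CTRL. The tissue label was checked against marker genes. A level of 1 CPM in 3 or more libraries was reached by 2 of 15 cardiomyocyte markers, 3 (Myl7, Nkx2-5 and Pln) had no counts, and Myh6, the main cardiac myosin, averaged 0.277 CPM. The same level was reached by 5 of 18 endothelial markers in the table. Cdh5, the endothelial cadherin, averaged 0.0297 CPM, Tie1 averaged 0.0212 CPM, and Emcn and Cldn5 had no counts. Eng, which stromal cells also express, made up most of the endothelial sum at 224 CPM. Of 13 leukocyte and macrophage markers, 4 reached 1 CPM, and of 15 fibroblast and mural markers, 7 did, among them Col1a2 at 1298 CPM. Most cardiomyocyte and endothelial markers thus stayed below 1 CPM, and these levels do not match the heart label. Which cells gave the RNA was not tested. The groups are therefore named by their vector labels, and no level below is assigned to a cell type.

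Vegfa and Nrp2 rose in the libraries labelled AAV9-hFNDC4, by 1.82-fold and 2.33-fold. The ligands Vegfb, Vegfd and Pgf and the receptor Flt1 did not pass the test. Kdr, Flt4 and Nrp1 had too few reads to be tested, and Kdr was detected almost only in the AAV9-CTRL libraries. Thus 2 of 6 tested members were higher and 0 lower (quasi-likelihood F test in edgeR, adjusted after Benjamini and Hochberg over all 14663 genes, threshold 0.05). At an unadjusted p under 0.05 none was lower either, in edgeR, DESeq2 or limma-voom. Across all tested genes 47.1% passed, 22.1% higher and 25.0% lower, so a share of this size is near the background. The median log2 fold change was 0.08 over the 6 members and 0.01 over all tested genes.

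**Figure D1:**
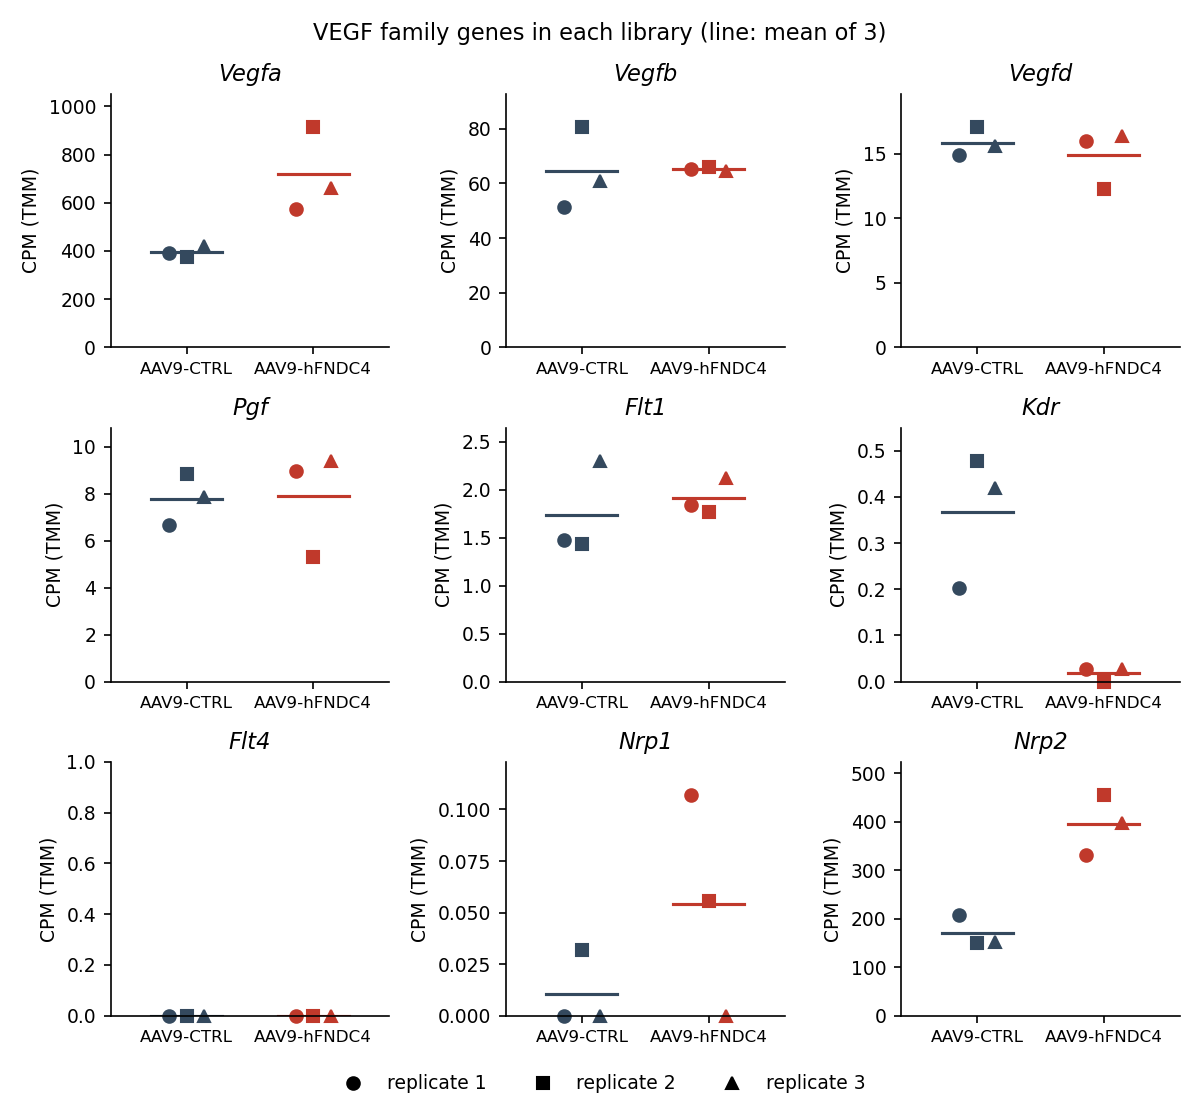
Level of each of the 9 measured VEGF family genes in CPM (TMM-normalized), with 1 point per library, marker shape by replicate number and a line at the mean of 3. Each panel has its own linear axis from 0. Vegfa (576 to 916 against 374 to 421 CPM) and Nrp2 (332 to 455 against 149 to 207 CPM) lie higher in all AAV9-hFNDC4 libraries. That held for 27.1% of all tested genes. Nrp1 and Flt4 lie at or near 0.

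The promoter sequences of both genes that rose are shown because Vegfa and Nrp2 moved in the same direction in these libraries. Each line gives bases 250 to 51 before the RefSeq start on the gene's own strand, 5′ to 3′ (RefSeq, GRCm38.p6). Capitals mark matches on either strand to ACGTG or GCGTG, the core of a hypoxia response element, to GGGCGG, the box bound by SP1, or to TGANTCA, the AP-1 site. The Vegfa window is chr17:46032428-46032627 on the minus strand, and the Nrp2 window is chr1:62703067-62703266 on the plus strand. Neither window overlaps an annotated exon.
Vegfa: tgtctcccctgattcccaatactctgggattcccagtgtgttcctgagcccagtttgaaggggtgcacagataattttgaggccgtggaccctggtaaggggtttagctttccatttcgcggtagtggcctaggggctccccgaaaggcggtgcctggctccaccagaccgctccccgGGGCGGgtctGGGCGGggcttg
Nrp2: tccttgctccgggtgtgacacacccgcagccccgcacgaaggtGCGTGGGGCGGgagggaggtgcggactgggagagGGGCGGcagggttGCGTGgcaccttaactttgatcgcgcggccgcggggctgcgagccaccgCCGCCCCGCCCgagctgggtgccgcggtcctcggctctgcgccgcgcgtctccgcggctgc

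The Vegfa window held 2 SP1 boxes and no hypoxia core, and the Nrp2 window held 4 SP1 boxes, 2 of which overlap by a base, and 2 GCGTG cores, 1 of which abuts an SP1 box. Neither held an AP-1 site. Among 32851 RefSeq promoter windows of the same length, 24.6% held GGGCGG, 22.6% GCGTG, 12.9% ACGTG and 5.57% TGANTCA. These matches describe the letters only, and the windows were 61.0% (Vegfa) and 75.5% (Nrp2) G and C. A second RefSeq start of Vegfa, inside the gene, is not shown because its window overlaps a Vegfa exon. That second window held 1 ACGTG, 1 GCGTG and 1 GGGCGG. Bases outside these windows were not searched, so the lack of a hypoxia core holds for the printed Vegfa window only.

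Vegfa, the ligand that drives most VEGF signalling, lies on chromosome 17 from 46016993 to 46032377 (minus strand, GRCm38). It was measured at 576, 916 and 663 CPM in AAV9-hFNDC4 replicates 1, 2 and 3 and at 393, 374 and 421 CPM in AAV9-CTRL replicates 1, 2 and 3. Every AAV9-hFNDC4 library stood above every AAV9-CTRL library, which held for 27.1% of all tested genes, and replicate 2 was the highest. The means were 718 ± 176 and 396 ± 23.6 CPM, a log2 fold change of 0.86 (SE 0.15, 95% interval 0.52 to 1.20, edgeR adjusted p = 8.73e-04). When AAV9-hFNDC4 replicate 2 was left out, Vegfa was still called, at 0.65. The counts sum all splice forms, so the VEGF-A isoforms that differ in heparin binding could not be told apart. In these bulk samples, a change in the number of cells that make a transcript and a change in RNA per cell cannot be told apart.

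Set among all tested genes, 1707 (11.6%) had a higher log2 fold change than Vegfa. Among the 227 other tested genes with a mean CPM at least as high as that of Vegfa, 9 had a higher log2 fold change. Per kilobase of exon, Vegfa ranked 368 of 13392 tested genes with a known length. It was thus an abundant transcript in both groups.

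**Figure D2:**
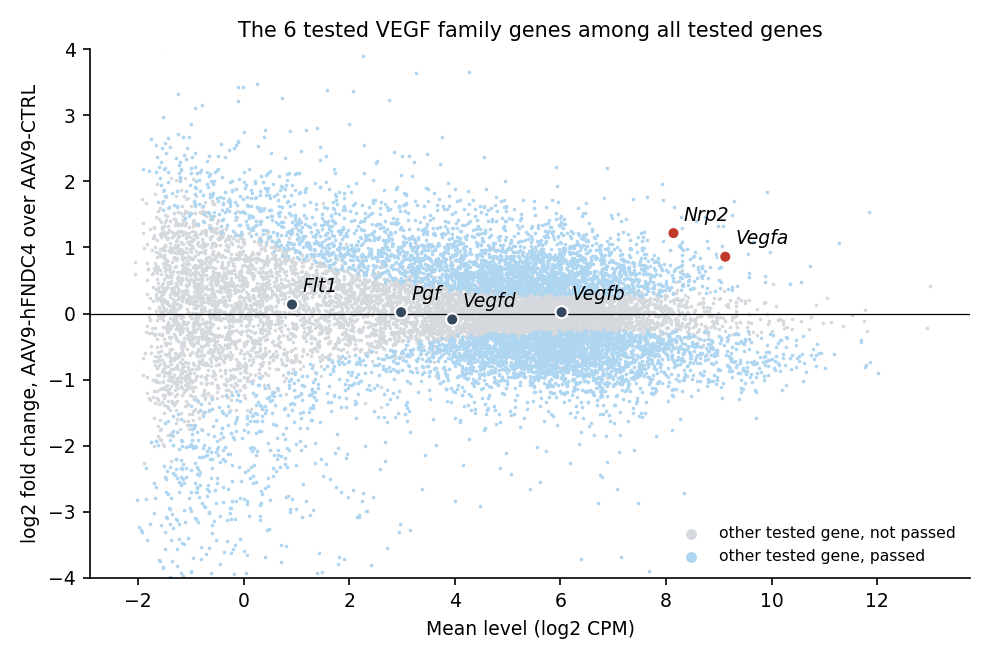
Log2 fold change (AAV9-hFNDC4 over AAV9-CTRL) against mean level (log2 CPM) for all 14663 tested genes, with the 6 tested VEGF family genes named, red where the test was passed. The axis stops at 4 in each direction and leaves out 206 genes. Vegfa (0.86) and Nrp2 (1.22) lie in the upper edge of the abundant genes, and the other 4 lie near 0.

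Vegfb, a ligand of FLT1 that is abundant in heart muscle (chromosome 19, 6982472 to 6987651), stood at 65.3, 66.0 and 64.7 CPM in AAV9-hFNDC4 replicates 1 to 3 and at 51.5, 80.8 and 60.9 CPM in AAV9-CTRL replicates 1 to 3. The 3 AAV9-hFNDC4 values fell within the range of the controls. The log2 fold change was 0.02 (SE 0.15, 95% interval -0.30 to 0.34, edgeR adjusted p = 0.92). Vegfb has a short exon length of 1281 bases, and with the correction for transcript length described with Nrp2 below it passed the test with a log2 fold change of 0.41 (edgeR adjusted p = 0.017). Its call therefore rests on how the length trend is treated.

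Vegfd, a ligand of FLT4 and KDR (chromosome X, 164373522 to 164402650), stood at 16.0, 12.3 and 16.4 CPM against 14.9, 17.1 and 15.6 CPM. The groups overlapped, with a log2 fold change of -0.09 (SE 0.15, 95% interval -0.42 to 0.24, edgeR adjusted p = 0.655). Pgf, a FLT1 ligand named for the placenta (chromosome 12, 85166637 to 85177785), stood at 8.97, 5.29 and 9.40 CPM against 6.68, 8.83 and 7.84 CPM. The groups overlapped here too, with a log2 fold change of 0.02 (SE 0.23, 95% interval -0.49 to 0.53, edgeR adjusted p = 0.952). In both genes AAV9-hFNDC4 replicate 2, the library with the most Vegfa, held the lowest of the 6 values. For Vegfb, Vegfd and Pgf the upper bound of the interval lay below the 0.86 estimated for Vegfa. That estimate has its own interval of 0.52 to 1.20, which the Pgf interval overlaps. These fits did not test the ligands against each other.

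The make-up of the ligand pool was compared within libraries, where no scaling between libraries enters. The ratio of Vegfa to Vegfb counts was 8.83, 13.9 and 10.3 in AAV9-hFNDC4 replicates 1, 2 and 3 and 7.62, 4.63 and 6.91 in AAV9-CTRL replicates 1, 2 and 3. The groups did not overlap, with a difference of 0.79 in mean log2 ratio (exact two-sided permutation test, p = 0.1, the smallest p that 3 against 3 can give). Thus the test could not reach 0.05 whatever the values. With the correction for transcript length, the log2 fold changes were closer, at 0.84 for Vegfa and 0.41 for Vegfb. Counts per kilobase of exon put the share of Vegfa among the 4 measured ligands at 72.2% to 81.2% in the AAV9-hFNDC4 libraries and 58.4% to 68.7% in the AAV9-CTRL libraries. The share of Vegfb was 16.1% to 22.5% against 24.8% to 34.7%, and Vegfd and Pgf together made up the rest. Summed over the 4 ligands, the level was 667 to 999 CPM against 466 to 505 CPM, and that sum is mostly Vegfa.

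**Figure D3:**
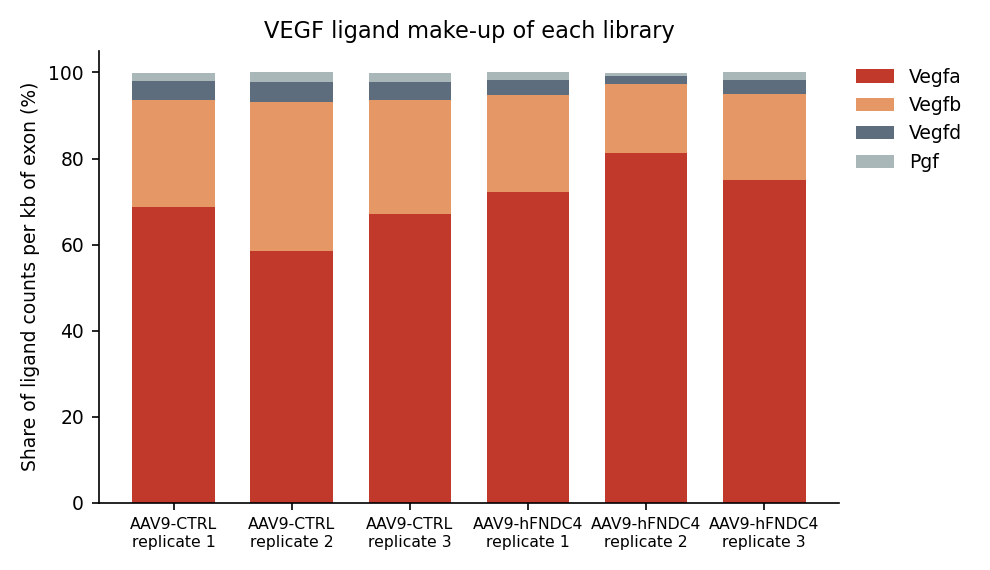
Share of each of the 4 measured ligands (in %) in the ligand counts per kilobase of exon, 1 bar per library. The Vegfa segment spans 58.4% to 68.7% in the 3 AAV9-CTRL libraries and 72.2% to 81.2% in the 3 AAV9-hFNDC4 libraries.

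The 3 receptor tyrosine kinases were scarce. Flt1 (VEGFR1, chromosome 5, 147561604 to 147726438) was measured at 1.84, 1.77 and 2.12 CPM in AAV9-hFNDC4 replicates 1 to 3 and at 1.48, 1.43 and 2.30 CPM in AAV9-CTRL replicates 1 to 3. The AAV9-hFNDC4 values lay inside the range of the controls, with a log2 fold change of 0.14 (SE 0.32, 95% interval -0.57 to 0.84, edgeR adjusted p = 0.755). Each library held 45 to 78 Flt1 counts, and the interval was the widest of the 6 tested members. Membrane-bound and soluble FLT1 come from the same gene and could not be told apart.

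Kdr (VEGFR2, chromosome 5, 75932827 to 75979072) had 1, 0 and 1 counts in the AAV9-hFNDC4 libraries and 7, 15 and 14 in the AAV9-CTRL libraries. All AAV9-hFNDC4 values lay below all controls, as in 29.5% of tested genes (56.6% did not overlap in either direction), but Kdr missed the filter on low counts. Its 36 counts against 2 gave a ratio of 20.0, with an exact 95% binomial interval from 5.15 to 171 that covers counting error only (PCR duplicates are not separate molecules). No test of Kdr is given, since so few reads let it pass a filter only through the group where it is high. Flt4 (VEGFR3, the receptor of lymphatic vessels, chromosome 11, 49609679 to 49652739) had 0 counts in all 6 libraries, which allows a level of up to 0.0143 CPM over all of them. Endothelial markers were sparse in both groups as well. Pecam1 stood at 1.90, 0.443 and 1.30 CPM against 2.29, 1.53 and 2.90 CPM and did not pass (edgeR adjusted p = 0.147). All 7 tested endothelial markers, Flt1 among them, did not pass, and the summed level of the list was 209 to 230 CPM against 235 to 255 CPM, most of it Eng. The part of this sum in the Kdr result was not tested.

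Nrp2, the neuropilin that binds VEGF-A, VEGF-C and the semaphorin SEMA3F (chromosome 1, 62703317 to 62818692), was the only abundant receptor of the family among those measured. Its level was 332, 455 and 397 CPM in AAV9-hFNDC4 replicates 1, 2 and 3 and 207, 149 and 153 CPM in AAV9-CTRL replicates 1, 2 and 3. All AAV9-hFNDC4 libraries stood above all controls, as in 27.1% of all tested genes. The means were 395 ± 61.7 and 170 ± 32.7 CPM, a log2 fold change of 1.22 (SE 0.15, 95% interval 0.88 to 1.55, edgeR adjusted p = 1.06e-04). Of all tested genes, 798 (5.44%) had a higher log2 fold change, and of the 588 others at least as abundant, 11 did.

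Fold changes rose with transcript length across genes, with a median log2 value of -0.49 for the shortest 10% and 0.46 for the longest 10% of tested genes. Nrp2 has 10380 exon bases and Vegfa has 3523. With this trend removed, the log2 fold change of Nrp2 was 0.70 (SE 0.10, edgeR adjusted p = 4.87e-04) and that of Vegfa 0.84 (edgeR adjusted p = 0.00161), and both calls remained. The correction thus turned the order of the 2 changes, whose difference from each other was not tested.

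**Figure D4:**
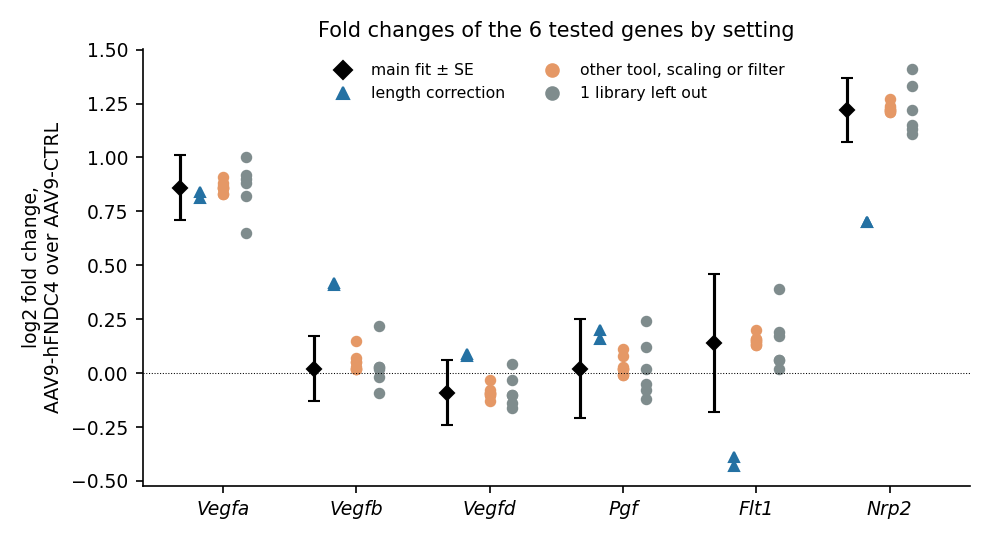
Log2 fold change of the 6 tested genes in the main fit (black, bars ± SE) and under each alternative, with length corrections as blue triangles, other tools, scalings, filters and the replicate block in orange, and fits without 1 library in grey. Vegfa lies between 0.65 and 1.0 and Nrp2 between 0.70 and 1.41 throughout, while Vegfb rises to 0.42 and Flt1 falls to -0.43 with a length correction.

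Nrp1, the paralogue of Nrp2 that serves VEGF-A and SEMA3A (chromosome 8, 128358591 to 128505476), was nearly absent. It had 4, 2 and 0 counts in AAV9-hFNDC4 replicates 1, 2 and 3 and 0, 1 and 0 in AAV9-CTRL replicates 1, 2 and 3. The ratio of 6 counts to 1 was 5.40, with an exact 95% binomial interval from 0.655 to 249, so no difference between the groups was detectable at this depth. Against these 7 counts in all, Nrp2 had 43451 counts in the AAV9-hFNDC4 group and 16942 in the AAV9-CTRL group. The neuropilin sum of 332 to 455 CPM against 149 to 207 CPM is therefore that of Nrp2, and no ratio of both genes was tested.

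Ordered by level per kilobase of exon, Vegfa was the most abundant at 204 ± 50.0 CPM per kilobase in AAV9-hFNDC4 and 112 ± 6.70 in AAV9-CTRL. Vegfb followed at 51.0 ± 0.514 and 50.3 ± 11.7, Nrp2 at 38.0 ± 5.95 and 16.3 ± 3.15, Vegfd at 7.28 ± 1.10 and 7.74 ± 0.550, and Pgf at 3.79 ± 1.09 and 3.74 ± 0.517. Flt1 stood at 0.174 ± 0.0166 and 0.159 ± 0.0448 CPM per kilobase. Neighbours in this order from Vegfa to Flt1 did not overlap within either group. Kdr and Nrp1 lay below 0.1 CPM per kilobase in every library, and overlapped each other in the AAV9-hFNDC4 libraries.

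The genes with the profile closest to Vegfa over the 6 libraries, by the mean absolute difference of log2 CPM centred on each gene's mean, were Sh3tc2 (0.039), Angptl6 (0.049) and Kctd15 (0.061). For Nrp2 they were Malat1, a nuclear long noncoding RNA (0.047), Hivep1, a zinc finger factor (0.048), and Aff1, a subunit of the super elongation complex (0.057). These were picked from 9260 genes with a mean of at least 10 CPM, and all 6 profiles share the libraries and the group difference. The 3 nearest to Nrp2 are also long, with 6983 to 8753 exon bases. Angptl6 shares 16.8% of its exon bases with a gene on the other strand.

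Genes that act with the family were read from 4 lists. Among 14 tested class 3 semaphorins, plexins and other neuropilin partners, 8 were higher, 2 lower and 4 did not pass, with a median log2 fold change of 0.46 against 0.01 over all tested genes, of which 22.1% were higher. The longest 10% of tested genes also had a median of 0.46, and exon lengths of the 14 ran from 1522 bases (Gipc1) to 11040 (Plxna2). The list median was not computed with the length correction. Sema3a, a repulsive guidance cue that binds NRP1, stood at 47.7 ± 3.79 against 25.1 ± 0.721 CPM (log2 fold change 0.93, SE 0.11). Plxna3, a plexin that transmits semaphorin signals with neuropilins, was higher by 0.77 (SE 0.11), L1cam, an adhesion molecule that associates with NRP1, by 0.74 (SE 0.10), and Sema3b by 0.64 (SE 0.13). Sema3f, whose protein binds NRP2, did not pass (0.10, SE 0.15, edgeR adjusted p = 0.606), nor did Sema3c, Plxna1 and Nrcam. These 4 were named after their values were seen. The 2 lower members, named after their values were seen, were Gipc1 (-0.31, SE 0.11), which binds the neuropilin tail, and Sema3d. Sema3d had 1, 2 and 8 counts in AAV9-hFNDC4 libraries against 37, 19 and 23 in AAV9-CTRL libraries and passed the filter through the latter alone, so its call is no support for a difference. With the length correction 5 members of this list were higher in place of 8.

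Of 41 tested genes of VEGF receptor signalling, 13 were higher, 8 lower and 20 did not pass, with a median of 0.10. The share that passed, 51.2%, is near the 47.1% of all tested genes. With the length correction 9 were higher and 10 lower, so the balance of the 2 directions depends on how the length trend is treated. Prkcb, a protein kinase C isoform downstream of VEGF receptors, stood at 135 ± 17.4 against 42.5 ± 7.67 CPM (1.67, SE 0.15). Pik3r1, a regulatory subunit of PI3 kinase, was higher by 1.18 (SE 0.12) and Plcg1, the phospholipase recruited by KDR, by 0.63 (SE 0.10). Map2k2, a kinase of the ERK cascade, fell by 0.64 on the log2 scale (SE 0.10). These genes serve many receptors, and their levels do not measure VEGF signalling.

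Among 21 tested genes of VEGF processing, matrix storage and receptor phosphatases, 3 were higher, 8 lower and 10 did not pass, with a median of -0.13. The share that passed, 52.4%, is again near the 47.1% of all tested genes. Ccn1, a matricellular protein that promotes angiogenesis, stood at 12.6 ± 1.61 against 212 ± 47.0 CPM (-4.07, SE 0.18), and Plat, tissue plasminogen activator, at 3.99 ± 0.255 against 17.5 ± 2.84 CPM (-2.14, SE 0.18). Thbs1, which binds VEGF-A and inhibits angiogenesis, had no counts in the AAV9-hFNDC4 libraries against 1.42 ± 0.379 CPM, at least 52.1-fold lower, taking 3 counts in that group as the floor. It passed the filter through the AAV9-CTRL libraries alone, so its place among the 8 is no support for a difference. Mmp9, also among the 8 and named after its values were seen, had 3, 12 and 11 counts in AAV9-hFNDC4 libraries. These were too few to pass the filter without the AAV9-CTRL libraries, which had 46, 42 and 50, so its call is no support either. The 3 higher genes were Hspg2 (perlecan, a heparan sulfate proteoglycan that holds VEGF-A in the basement membrane) at 938 ± 54.6 against 437 ± 56.1 CPM, Sdc2 by 0.67 (SE 0.10) and Mmp14 by 0.56 (SE 0.10), the last 2 named after their values were seen.

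Of 22 regulators of Vegfa transcription and mRNA, all tested, 8 were higher, 6 lower and 8 did not pass, with a median of 0.11. The share that passed was 63.6%, beside 47.1% of all tested genes. Hif1a, the oxygen-regulated subunit that activates Vegfa, was higher at 226 ± 20.3 against 161 ± 15.5 CPM (edgeR adjusted p = 0.00384), and Hif3a, a related subunit with inhibitory forms, at 8.46 ± 0.606 against 2.56 ± 0.405 CPM (1.72, SE 0.21). Sp1, a zinc finger activator of many promoters, stood at 295 ± 13.4 against 165 ± 22.5 CPM (0.84, SE 0.12). Zfp36, whose protein destabilizes Vegfa mRNA, was lower at 11.6 ± 0.850 against 26.9 ± 3.40 CPM (-1.22, SE 0.14), as was its relative Zfp36l1 (-0.96, SE 0.12), although 55.9% of the Zfp36l1 exon bases are shared with a gene on the other strand. Named after their values were seen, Elavl1 (-0.78, SE 0.13) and Esrra (-0.79, SE 0.13) were also lower, and Egln3 was higher (1.23, SE 0.26). The part of any of these regulators in the Vegfa result was not tested. Apart from Hif1a, the genes of these lists named as changed were picked among those that passed the edgeR test (adjusted p below 0.05). Their passing was thus fixed by that choice and is no further support. None of them overlapped between the groups, which held for 56.6% of all tested genes. The fold changes of genes named from the 4 lists come from the main fit, without the length correction. Among those higher, Hspg2, Sp1, Pik3r1 and Hif3a are long, with 6505 to 14217 exon bases.

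**Figure D5:**
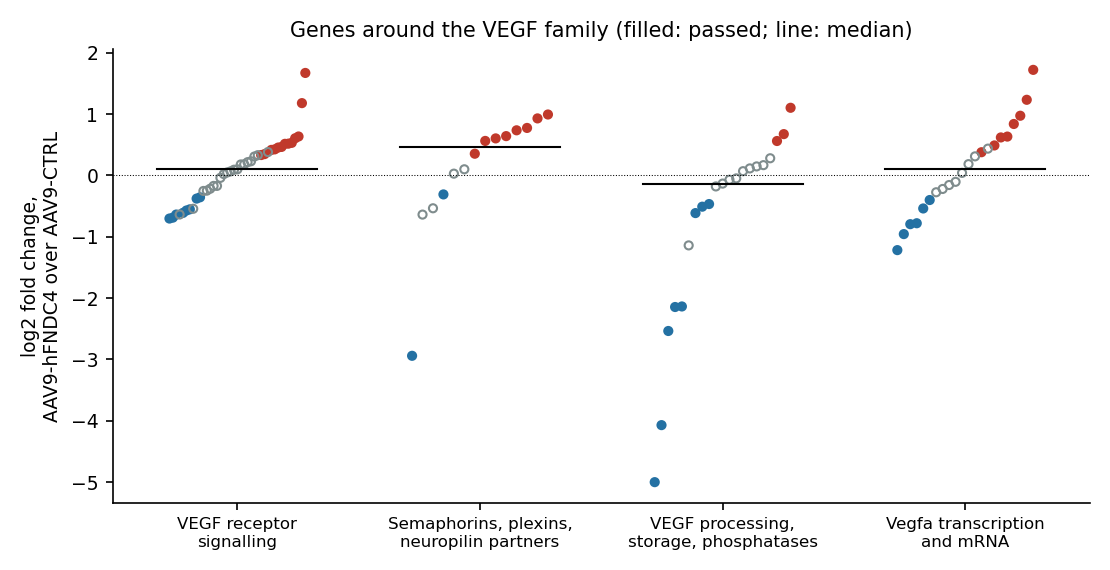
Log2 fold change (AAV9-hFNDC4 over AAV9-CTRL) of every tested member of 4 lists, sorted within each list, filled where the edgeR test was passed (red higher, blue lower), open where it was not, with a line at the median. Thbs1, with no counts in the AAV9-hFNDC4 libraries, is drawn at -5. Medians lie at 0.10, 0.46, -0.13 and 0.11 from left to right.

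The marker lists moved beside these results. Of 8 tested fibroblast and mural markers, 6 were higher and 1 lower, where 22.1% and 25.0% of all tested genes were. The summed level of the list was 3895 to 4283 CPM against 2506 to 2753 CPM. The 1 lower was Tagln, named after its values were seen, with 18 counts in the AAV9-hFNDC4 group against 57. It could pass the filter only with the AAV9-CTRL libraries, so its call is no support for a difference. Pdgfra, a growth factor receptor of fibroblasts, was at 216 ± 59.5 against 93.6 ± 21.4 CPM, while Dcn averaged 0.0423 CPM and Lum 0.00499 CPM over all libraries. The cardiomyocyte sum was 43.3 to 44.6 against 56.9 to 58.8 CPM, mostly Tnnt2, and the leukocyte and macrophage sum 19.2 to 22.3 against 38.4 to 44.8 CPM, mostly Cd68. Cd68 stood at 11.7 ± 1.40 against 27.9 ± 2.94 CPM, while Lyz2, at 7.04 ± 1.74 against 7.62 ± 3.01 CPM, did not pass. The part of these differences in the Vegfa and Nrp2 results was not tested.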

How the data were processed

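The file deposited by the authors holds raw, unnormalized counts of reads for each gene symbol and library. Per the submitters' processing notes, fastp, HISAT2, HTSeq, R 3.2.0 and DESeq2 were used with GRCm38 (mm10). Parameters, annotation release and strand setting: not given in the sources used here. Counts were fitted in R 4.3.3 with edgeR 4.0.16 (filterByExpr, TMM, robust quasi-likelihood F test), and p-values were adjusted over all 14663 genes. The standard error is the log2 fold change over the square root of F. Alternatives used DESeq2 1.42.0, limma 3.58.1 (voom), RLE and upper-quartile scaling, other filters, a replicate block, each library left out, and loess offsets (span 0.4) on transcript length or GC content. Length came from GENCODE vM21 (GRCm38), which covered 13392 tested genes. Ratios of 2 members needed at least 10 counts in every library. The tests were also run on simulated counts with few changed genes and no length trend. These data hold many changed genes and such a trend, so that run says little about the calls here. No member shared more than 1.03% of its exon bases with another gene.

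Members and lists were chosen with earlier results of these data known. Named were all members, Hif1a, of each list the up to 4 passing genes lowest in p, and the 3 genes closest in profile to each member that passed. Replicates were not duplicates, since within-group pairs differed by a chi-square of 9.36 to 75.2 per gene where sampling noise gives 1.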

Additional observations from a re-analysis of the deposited data

How the results depend on the processing

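Vegfa and Nrp2 were called higher in all 16 alternatives, with log2 fold changes of 0.65 to 1.0 and 0.70 to 1.41. The 4 tested members that did not pass each changed sign under some alternatives. Pgf was at -0.01 with limma-voom and -0.01 with the replicate block, and Vegfd at 0.09 with the length correction and 0.08 with it and the replicate block, where Flt1 was at -0.43 and -0.39. Vegfb passed with the length correction (0.41) and with it and the replicate block (0.42). Leaving out each library gave 0.65 to 1.0 for Vegfa, -0.09 to 0.22 for Vegfb, -0.16 to 0.04 for Vegfd, -0.12 to 0.24 for Pgf, 0.02 to 0.39 for Flt1 and 1.11 to 1.41 for Nrp2, and 0 to 1 members called lower. That 1 was Kdr, also 1 without the low-count filter, where more genes were tested, and its counts are too few to support that call. Neuropilin partners called higher numbered 5 with the length correction. Those called lower numbered 1 with the replicate block and 1 to 2 with a library left out. The cause was not tested. The Vegfa to Vegfb ratio kept its direction. The Vegfa to Vegfc ratio was not run. Same-numbered libraries deviated in opposite directions (correlations -0.248, -0.397 and -0.276). Pairs of different number were not set beside these values, so the check cannot decide whether the numbers pair libraries. With the replicate block, Vegfa was at 0.83 and Nrp2 at 1.22. For Kdr, Flt4 and Nrp1, depth limits any comparison.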

Other observations

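The near absence of Nrp1 and Kdr was set beside the adjoining genes. Itgb1, the integrin gene next to Nrp1, stood at 384 against 429 CPM, and Pard3 on its other side at 93.8 against 61.2 CPM. Around Kdr, Kit stood at 0.0540 against 0.302 CPM, Pdgfra at 216 against 93.6 CPM and Srd5a3 at 25.1 against 22.7 CPM. Kit, like Kdr, lay below 1 CPM in both groups, too low to support a difference. Beside Flt1, Pan3 stood at 82.5 against 75.0 CPM and Pomp at 93.9 against 210 CPM. These genes were named after their values were seen, and no test was made of their relation to the VEGF receptors.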
